A study of Mus musculus with 24 samples.

Results

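The response of ER-Hoxb8 cells to the HDAC3 inhibitor BRD3308 was compared between cells expressing WT-ERG and cells carrying an empty vector (BB). For each gene, the log2 fold change of BRD3308 over DMSO in BB cells was subtracted from the same fold change in WT-ERG cells, and this difference in response was tested as a contrast between 16 of the 24 libraries of the series. The other 8 libraries, of P199L-ERG cells with BRD3308 or DMSO, entered the same model, where they add to the estimate of the spread. Of 53801 genes in the table, 12963 passed a filter on low counts and were tested. ER-Hoxb8 cells are conditionally transformed myeloid progenitors of C57BL/6 mice, held immature by a Hoxb8 protein that depends on beta-estradiol. WT-ERG cells were transduced with a lentivirus carrying human ERG, P199L-ERG cells with one carrying ERG with 1 amino acid changed and BB cells with the lentiviral vector alone, and GFP-positive cells were sorted and grown as stable lines. In all groups beta-estradiol had been washed out. The 4 groups were WT-ERG cells with 5 µM BRD3308, WT-ERG cells with DMSO, BB cells with 5 µM BRD3308 and BB cells with DMSO, each for 36 h and each with 4 replicate libraries. Dose and time are those of the methods and of the deposited description, whereas other passages of the paper give another dose and another time. The replicates are described as independent experiments, but separate transductions for them are not described, so that p values may measure only the spread between cultures of a line, and an effect of ERG cannot be told apart from a difference between the derived lines.

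ERG is an ETS transcription factor of blood stem cells and endothelium, and its forced expression holds myeloid progenitors back from maturing. NCoR complexes carry the histone deacetylase HDAC3 to transcription factors and keep their target genes silent, and BRD3308 inhibits HDAC3. Neutrophils arise from such progenitors through successive granule stages, and monocytes branch from the same ancestors.

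Total counts were between 12510036 and 16280939 in the 16 libraries. Markers of myeloid progenitors and neutrophils were present in all 4 groups, and none of 11 was at 0. The library of replicate 4 of WT-ERG cells in DMSO had the strongest trend with exon length of the 16. Its deviations from the group mean correlated with exon length at r = -0.473 over 9763 genes, whereas r was between -0.211 and 0.328 in the other 15 libraries. The trend followed the replicate number, with r from 0.16 to 0.328 in replicate 1 and from -0.473 to -0.109 in replicate 4 of the 4 groups. For P199L-ERG cells, r was 0.424 in replicate 1 and -0.439 in replicate 4 with DMSO, and 0.133 and 0.0215 with BRD3308. Without the library of WT-ERG DMSO replicate 4, 202 genes were called, of which 185 were among those called with it. In that fit 8 of the 78 named genes lost their call. Erg averaged 121 ± 3.32 CPM (reads scaled to the size of the library; SD, n = 4) in WT-ERG cells with BRD3308 and 105 ± 3.72 CPM with DMSO, against 111 ± 5.22 CPM and 93.7 ± 4.02 CPM in BB cells. These reads were mapped to the mouse genome, and reads of the human construct cannot be told apart from those of mouse Erg, so that this does not check the construct. Because the RNA is of whole cultures, fewer cells of a type and less RNA per cell cannot be told apart either.

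With BRD3308, 6217 genes (48%) changed in WT-ERG cells and 5954 (45.9%) in BB cells at an adjusted p under 0.05 in the edgeR quasi-likelihood test. In WT-ERG cells 3207 genes rose (24.7%) and 3010 fell (23.2%), and in BB cells 3105 rose (24%) and 2849 fell (22%). In both lines 2493 genes rose and 2236 fell. Across genes, the 2 responses had a Pearson r of 0.867 and a Spearman rho of 0.807, given as a description, since genes are not replicates. The response itself differed for 224 genes (1.73%). It was higher in WT-ERG cells for 107 (0.825%) and lower for 117 (0.903%), and 1352 genes had an unadjusted p under 0.05. The median absolute difference of the 224 genes was 0.46 on the log2 scale, and 26 genes differed by over 1. For 8779 genes, 67.7% of those tested, the 95% interval of the difference lay within 0.5 in either direction, and the median standard error was 0.108.

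**Figure D1:**
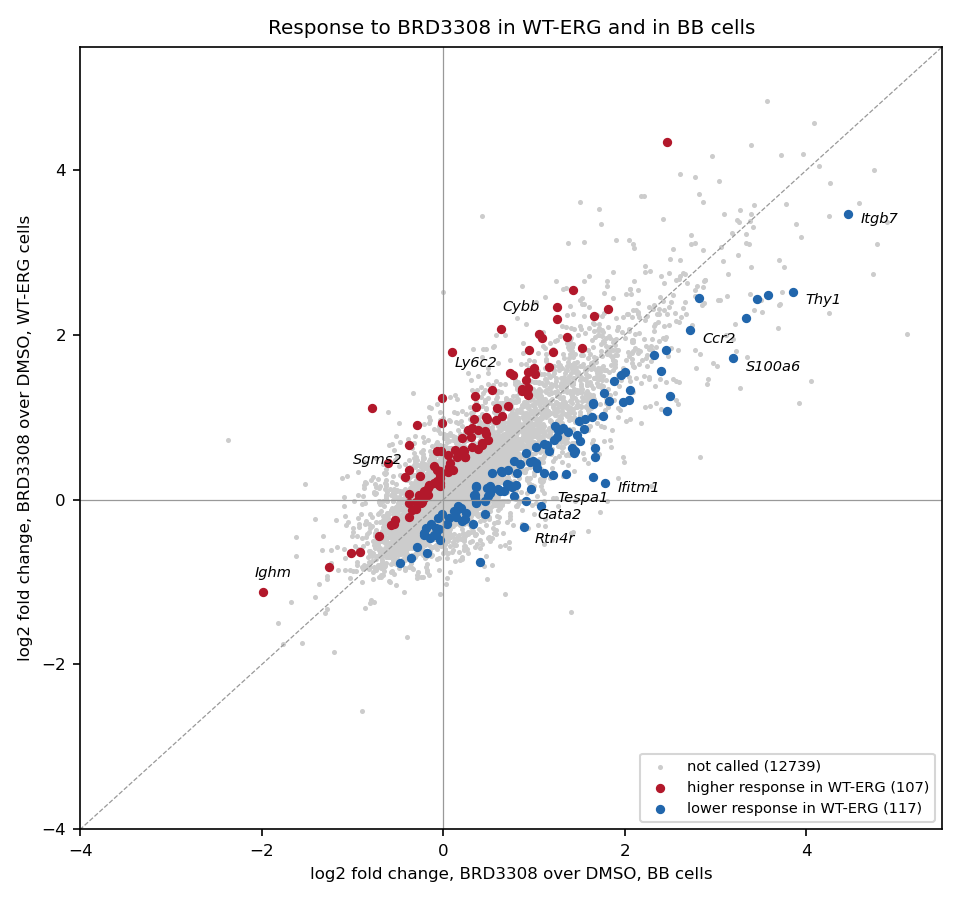
Log2 fold change with BRD3308 in WT-ERG cells (y axis) against BB cells (x axis) for the 12963 genes tested, of which 1 lies outside the axes. Red points are the 107 genes with a higher response in WT-ERG cells and blue points the 117 with a lower one. Most genes lie near the dashed line of equal response, and the coloured points lie on both sides of it.

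The 224 genes fell into classes by the separate responses. Genes that rose in both cell lines made up the largest number, 53 of them rising more in WT-ERG cells and 67 rising more in BB cells. A further 22 genes rose in WT-ERG cells without a called change in BB cells, and 22 rose in BB cells without a called change in WT-ERG cells. Among genes that fell, 8 fell more in WT-ERG cells, 11 fell more in BB cells, 11 fell with a call in WT-ERG cells alone and 12 with a call in BB cells alone. The last 18 genes moved in opposite directions, 9 of them rising in WT-ERG cells and falling in BB cells, and 9 the reverse.

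Promoters are shown for 4 opposite-response genes, 2 of each direction, which had 1 promoter each in the table and held an ETS core, the short motif that ETS factors such as ERG bind. Mtap, Bcl2, Itih5 and Oaf also had 1 promoter with a core. The printed sequences are RefSeq sequences of GRCm38.p6, from 250 bases before the start of the gene to 50 bases after it, on the strand of the gene. Capitals mark CGGAAG or AGGAAG, or their reverse complements. Chst13 and Cnst rose in WT-ERG cells and fell in BB cells, and Dapp1 and Ezr did the reverse.
Chst13, chr6:90325136-90325435, minus strand: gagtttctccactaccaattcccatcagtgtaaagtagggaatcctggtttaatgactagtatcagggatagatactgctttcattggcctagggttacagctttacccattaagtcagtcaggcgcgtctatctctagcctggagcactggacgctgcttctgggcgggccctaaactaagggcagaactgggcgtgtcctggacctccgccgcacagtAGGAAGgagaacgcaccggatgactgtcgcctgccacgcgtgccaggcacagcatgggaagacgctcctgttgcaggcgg
Cnst, chr1:179546279-179546578, plus strand: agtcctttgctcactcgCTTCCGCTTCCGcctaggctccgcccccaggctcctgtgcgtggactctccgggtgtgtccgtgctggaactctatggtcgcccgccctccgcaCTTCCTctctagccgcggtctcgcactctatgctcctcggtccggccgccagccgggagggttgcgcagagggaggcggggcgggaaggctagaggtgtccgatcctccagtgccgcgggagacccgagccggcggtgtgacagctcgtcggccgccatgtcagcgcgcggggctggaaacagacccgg
Dapp1, chr3:137981500-137981799, minus strand: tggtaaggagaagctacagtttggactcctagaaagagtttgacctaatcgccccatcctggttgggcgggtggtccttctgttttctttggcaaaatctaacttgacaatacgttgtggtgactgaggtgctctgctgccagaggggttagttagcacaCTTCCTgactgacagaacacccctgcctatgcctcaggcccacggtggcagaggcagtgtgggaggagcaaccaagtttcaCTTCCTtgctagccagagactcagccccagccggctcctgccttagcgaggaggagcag
Ezr, chr17:6782731-6783030, minus strand: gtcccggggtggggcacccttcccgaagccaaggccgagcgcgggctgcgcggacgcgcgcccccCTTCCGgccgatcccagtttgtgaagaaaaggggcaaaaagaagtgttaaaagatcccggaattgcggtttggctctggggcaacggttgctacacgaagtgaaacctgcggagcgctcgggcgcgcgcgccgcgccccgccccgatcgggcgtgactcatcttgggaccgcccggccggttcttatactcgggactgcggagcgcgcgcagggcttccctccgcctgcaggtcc

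At least 1 of these cores was found in 13 of the 26 promoters listed for 15 of the 18 opposite-response genes, in 51.3% of 113 promoters of genes with a higher response in WT-ERG cells and in 45.6% of 125 promoters of genes with a lower one. The share was 55.5% over the 11850 promoters of all genes tested and 46.5% over all 32851 promoters of the same length. CGGAAG alone was in 20.4% and 11.2% of the promoters of genes with a higher and a lower response, against 31.6% for all genes tested. These shares are a description and say nothing about where ERG was bound.

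Sgms2 (ENSMUSG00000050931, chr3:131318985-131491411, GRCm38), which makes sphingomyelin at the plasma membrane, had the smallest p of the opposite-response genes. It had 170, 178, 172 and 176 CPM in WT-ERG cells with BRD3308, against 147, 144, 139 and 141 CPM with DMSO. BB cells had 202, 201, 197 and 202 CPM with BRD3308, against 234, 236, 245 and 243 CPM with DMSO. BRD3308 libraries thus lay above all DMSO libraries in WT-ERG cells and below all of them in BB cells. The log2 fold changes were 0.29 and -0.26, with a difference of 0.54 ± 0.06 (SE; edgeR adjusted p = 3.6e-07). Chst13, a sulfotransferase that acts on chondroitin, had 20.8, 20.3, 23.3 and 22.2 CPM in WT-ERG cells with BRD3308, against 17.3, 16.8, 18 and 19.6 CPM with DMSO. Levels in BB cells were 36.0, 39.7, 39.7 and 36.7 CPM with BRD3308, against 46.8, 51.0, 51.9 and 53.4 CPM with DMSO. Its groups did not overlap in either line, and its difference was 0.69 ± 0.09 (adjusted p = 9.3e-06).

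Cnst, which encodes consortin, a protein that binds connexins in the secretory pathway, averaged 89.1 ± 3.29 CPM in WT-ERG cells with BRD3308 and 78.5 ± 1.87 CPM with DMSO, against 58.1 ± 2.39 CPM and 64.7 ± 1.54 CPM in BB cells (SD, n = 4 each). Its difference was 0.34 ± 0.06 (edgeR adjusted p = 0.001). Sgms2, Chst13 and Cnst kept both opposite calls in each of 24 alternatives at the same threshold. The tetraspanin Tspan2 (0.30 ± 0.06), Itih5 (0.32 ± 0.08), of a family of proteins that bind hyaluronan, and the syntaxin Stx2 (0.32 ± 0.08) also rose in WT-ERG cells and fell in BB cells, with adjusted p values of 0.0037, 0.022 and 0.033. Tspan2 kept opposite calls in 15 of the alternatives, Itih5 in 20 and Stx2 in 11. Itih5 lost the call for the difference without BB DMSO replicate 1, BB BRD3308 replicate 1 or WT-ERG BRD3308 replicate 1, with adjusted p values up to 0.073. Stx2 lost it without any 1 of 11 libraries, in a fit of the 16 libraries alone and without a filter on low counts, with adjusted p values up to 0.14.

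Rtn4r (ENSMUSG00000043811, chr16:18127642-18152408), the receptor for myelin inhibitors of axon growth, differed most among the named genes that fell in WT-ERG cells and rose in BB cells. It had 17.6, 14.5, 16.7 and 13.4 CPM in WT-ERG cells with BRD3308, against 20.8, 19.7, 21.0 and 16.3 CPM with DMSO, and these groups overlapped. In BB cells it had 11, 10.2, 9.81 and 9.46 CPM with BRD3308, against 6.08, 5.27, 5.70 and 4.73 CPM with DMSO, with no overlap. The log2 fold changes were -0.33 and 0.89, and the difference was -1.22 ± 0.19 (edgeR adjusted p = 0.00017). The fall in WT-ERG cells lost its call when DMSO replicate 1 or 3 or BRD3308 replicate 2 or 4 of the WT-ERG cells was left out, with adjusted p values up to 0.073, while the difference kept its call.

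Tubb6, a beta-tubulin, had 26.0, 21.4, 26.9 and 23.9 CPM in WT-ERG cells with BRD3308, against 28.9, 29.2, 30.2 and 32.5 CPM with DMSO. BB cells had 21.1, 21.6, 23.7 and 22 CPM with BRD3308, against 16.7, 16.9, 17.4 and 19.3 CPM with DMSO. No groups overlapped within a line, and the difference was -0.63 ± 0.12 (edgeR adjusted p = 0.0022). Mtap, the enzyme that salvages methylthioadenosine, averaged 31.7 ± 1.22 CPM in WT-ERG cells with BRD3308 and 37.4 ± 2.28 CPM with DMSO, against 28.2 ± 2.10 CPM and 23.9 ± 1.45 CPM in BB cells, and its difference was -0.47 ± 0.09 (adjusted p = 0.0024). Its BRD3308 and DMSO libraries were apart in WT-ERG cells and overlapped in BB cells. Tubb6 and Mtap kept opposite calls in each of the 24 alternatives.

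Bcl2, the founding inhibitor of apoptosis of its family, had 24.6, 24.3, 25.3 and 24.4 CPM in WT-ERG cells with BRD3308, against 29.0, 29.1, 26.6 and 25.6 CPM with DMSO. Levels in BB cells were 18.9, 21.7, 19.2 and 19.2 CPM with BRD3308, against 18.5, 15.6, 15.7 and 16.8 CPM with DMSO. The groups did not overlap in either line, and the difference was -0.41 ± 0.09 (edgeR adjusted p = 0.0087). It was the 1 member called of 14 in the BCL2 family (7.14%, beside 1.73% over all genes). Rnf145, a ubiquitin ligase of the endoplasmic reticulum (-0.30 ± 0.06), the B cell adaptor Dapp1 (-0.28 ± 0.06) and Ezr, which encodes ezrin and links the membrane to actin (-0.25 ± 0.06), had the same pattern, with adjusted p values of 0.0041, 0.0087 and 0.012. For these 4 genes the difference kept its call in each of the 24 alternatives, but the opposite calls did not. The fall of Bcl2 in WT-ERG cells had an adjusted p of up to 0.14 and that of Rnf145 of up to 0.22, both without a filter on low counts. The rise of Dapp1 in BB cells had one of up to 0.067, without BB BRD3308 replicate 1, and that of Ezr one of up to 0.083, without BB DMSO replicate 3.

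**Figure D2:**
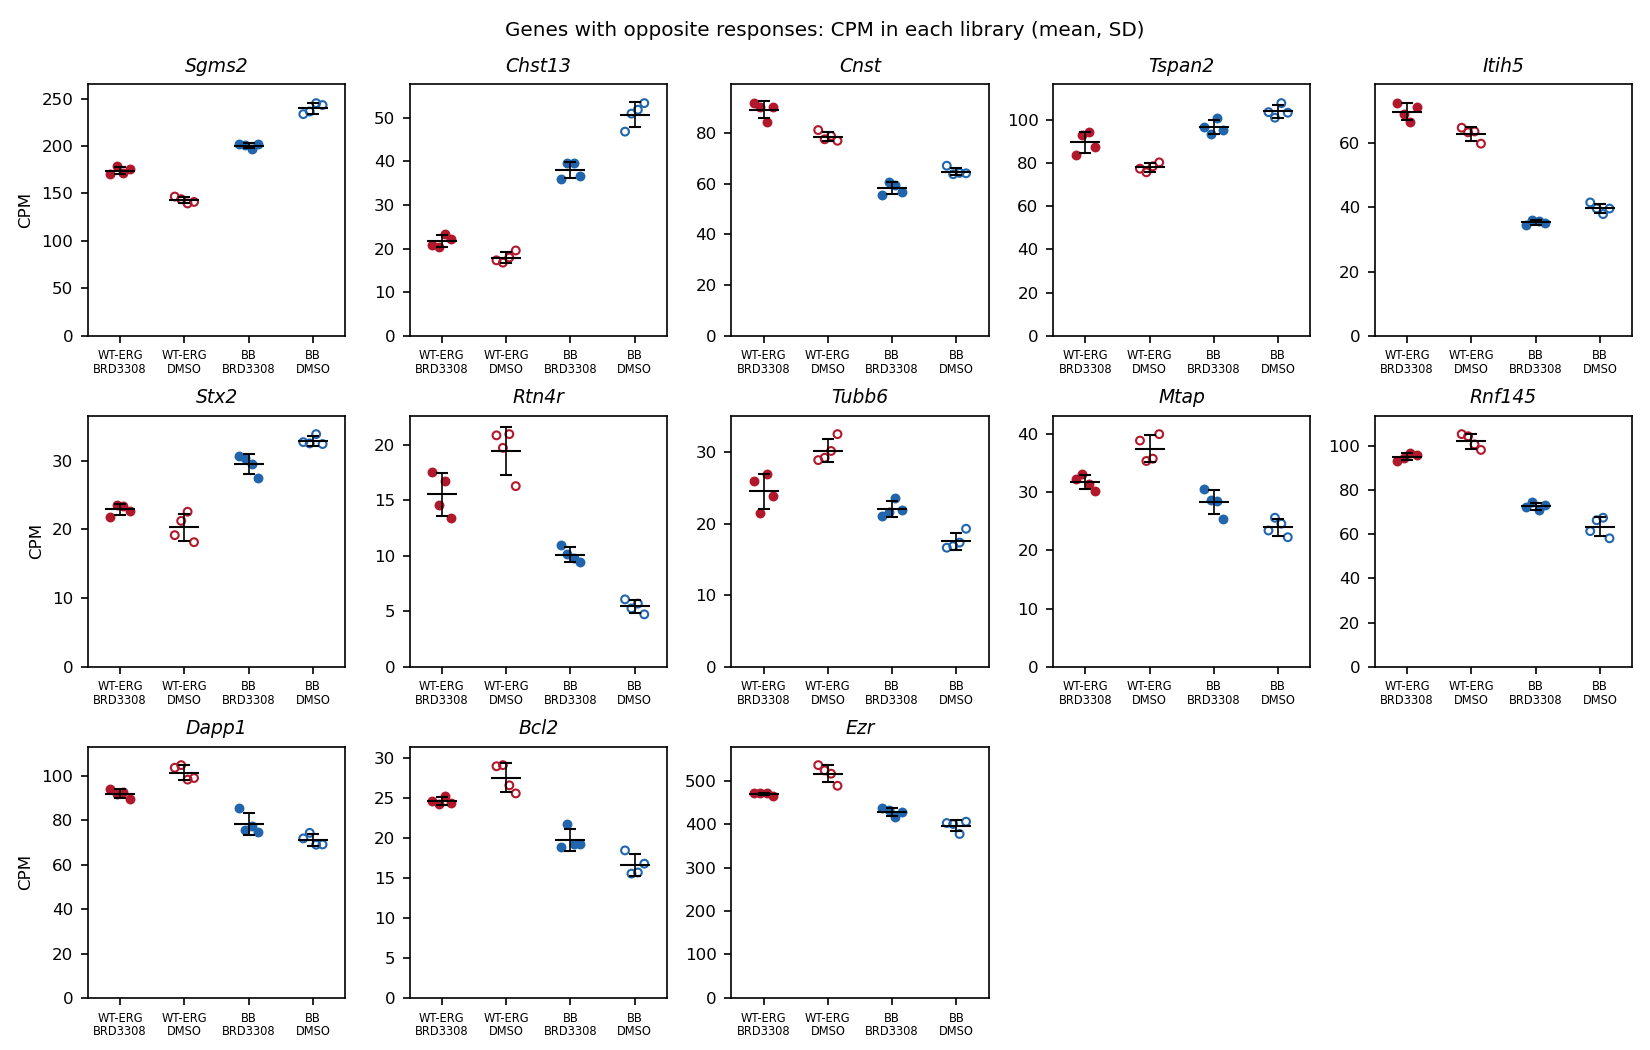
CPM of 13 opposite-response genes in each library (y axis from 0), with filled points for BRD3308, open points for DMSO, red for WT-ERG and blue for BB. Black bars are the mean and SD of 4 replicates. Sgms2 to Stx2 are higher with BRD3308 in WT-ERG cells and lower in BB cells, and Rtn4r to Ezr show the reverse.

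Several genes responded in BB cells with no called response in WT-ERG cells. Gata2 (ENSMUSG00000015053, chr6:88193891-88207032), a transcription factor of stem cells and mast cells and a partner of ERG in the heptad, a group of 7 stem cell factors, had 21.9, 19.6, 22.5 and 21.0 CPM in WT-ERG cells with BRD3308, against 25.7, 21.5, 18.3 and 20.2 CPM with DMSO. In BB cells it had 12.4, 12.5, 14.6 and 15.1 CPM with BRD3308, against 7.01, 7.24, 6.83 and 7.88 CPM with DMSO. The WT-ERG groups overlapped, and all 8 WT-ERG libraries lay above all 8 BB libraries. The log2 fold changes were -0.01 and 0.92, and the difference was -0.93 ± 0.14 (edgeR adjusted p = 0.0001). Tespa1, an adaptor of T cell receptor signalling, averaged 23.5 ± 1.72 CPM in WT-ERG cells with BRD3308 and 24.7 ± 0.83 CPM with DMSO, against 16.2 ± 1.49 CPM and 7.67 ± 0.86 CPM in BB cells, with a difference of -1.15 ± 0.13 (adjusted p = 1.4e-06). The proteoglycan Gpc3 (-0.28 ± 0.05, adjusted p = 0.0004) and the cysteine protease inhibitor Stfa1 (-0.84 ± 0.17, adjusted p = 0.0056) rose in BB cells as well. Stfa1 has near-identical copies, among which reads may have been divided.

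Genes that fell with a call in BB cells alone differed by smaller amounts. Megf9, a membrane protein with EGF-like repeats, averaged 104 ± 2.12 CPM in WT-ERG cells with BRD3308 and 101 ± 2.78 CPM with DMSO, against 289 ± 7.23 CPM and 349 ± 9.19 CPM in BB cells. Its difference was 0.31 ± 0.06 (edgeR adjusted p = 0.0011). The mitochondrial aldehyde dehydrogenase Aldh2 (0.22 ± 0.04, adjusted p = 0.0022) and the sorting receptor Sort1 (0.44 ± 0.08, adjusted p = 0.0023) also fell in BB cells. The stem cell factor Hlf averaged 27.1 ± 1.39 CPM in WT-ERG cells with BRD3308 and 26.1 ± 0.87 CPM with DMSO, against 27.8 ± 0.49 CPM and 33.5 ± 1.65 CPM in BB cells. Its difference was 0.32 ± 0.07 (adjusted p = 0.017), and it lost its call without BB DMSO replicate 2 and without a filter on low counts, with adjusted p values of 0.054 and 0.11. The receptor Il17ra (0.27 ± 0.07, adjusted p = 0.041) lost its call without any 1 of 12 libraries and without the filter, with adjusted p values up to 0.10.

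Other genes had a called response in WT-ERG cells alone. Spns2, the exporter of sphingosine-1-phosphate, averaged 23.2 ± 0.76 CPM in WT-ERG cells with BRD3308 and 32.6 ± 1.97 CPM with DMSO, against 14.8 ± 0.80 CPM and 15.2 ± 1.26 CPM in BB cells. The groups were apart in WT-ERG cells and overlapped in BB cells, with a difference of -0.45 ± 0.10 (edgeR adjusted p = 0.013). Rgs18, a regulator of G protein signalling in platelets (-0.33 ± 0.07, adjusted p = 0.013), also fell in WT-ERG cells. The ETS factor Etv4 averaged 4.16 ± 0.89 CPM in WT-ERG cells with BRD3308 and 7.06 ± 0.47 CPM with DMSO, against 2.59 ± 0.61 CPM and 1.94 ± 0.08 CPM in BB cells, with a difference of -1.16 ± 0.23 (adjusted p = 0.0035).

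Rises called in WT-ERG cells alone included Abcc5, an exporter of cyclic nucleotides. It averaged 85.6 ± 1.32 CPM in WT-ERG cells with BRD3308 and 58.8 ± 3.81 CPM with DMSO, against 108 ± 3.61 CPM and 104 ± 2.18 CPM in BB cells, and its difference was 0.49 ± 0.08 (edgeR adjusted p = 0.00032). The septin Sept5 (0.94 ± 0.15, adjusted p = 0.0003) and the transcript 4930438A08Rik (0.61 ± 0.09, adjusted p = 0.00021) were of the same class. In these 3 genes the BRD3308 and DMSO libraries were apart in WT-ERG cells and overlapped in BB cells.

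**Figure D3:**
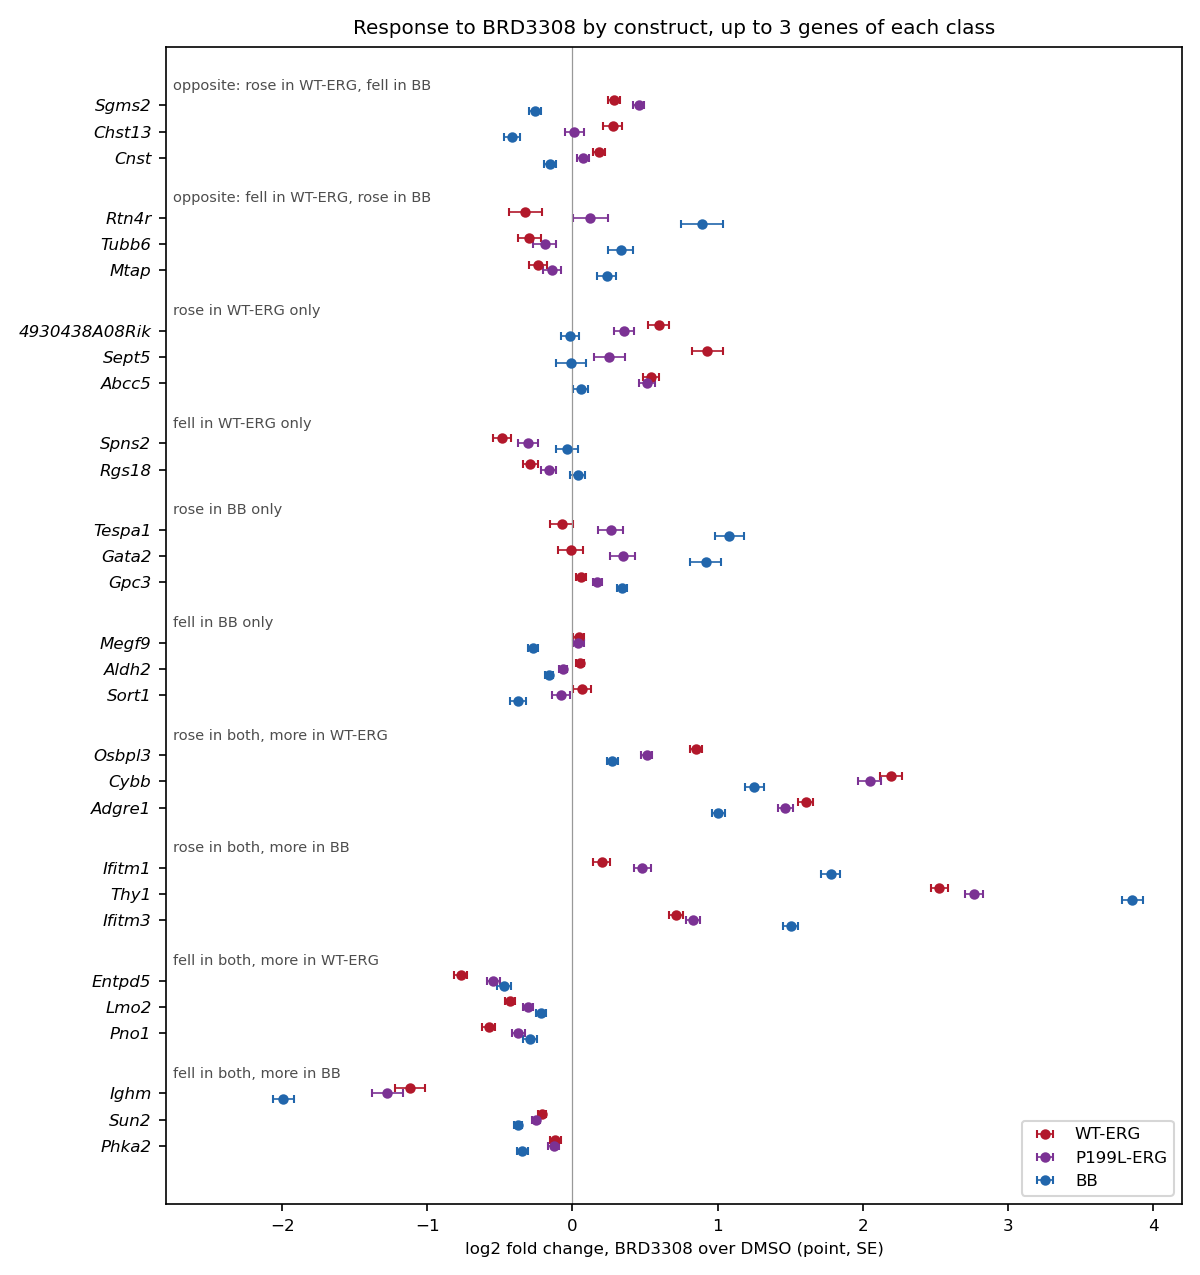
Log2 fold change with BRD3308 (x axis, point with SE) in WT-ERG (red), P199L-ERG (purple) and BB cells (blue), for named genes with the smallest p in each class, up to 3 a class. P199L-ERG cells carry an ERG with 1 amino acid changed. Gata2 lies near 0 in WT-ERG cells and at 0.92 in BB cells, and Ifitm1 at 0.20 and 1.78.

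Among genes that rose in both lines, 67 rose more in BB cells. Ifitm1 (ENSMUSG00000025491, chr7:140967221-140969825), an interferon-induced membrane protein, had 310, 328, 336 and 338 CPM in WT-ERG cells with BRD3308, against 270, 285, 263 and 324 CPM with DMSO. Levels in BB cells were 163, 175, 170 and 194 CPM with BRD3308, against 48.3, 49.1, 52.9 and 54.1 CPM with DMSO. The groups overlapped in WT-ERG cells and lay far apart in BB cells, and the difference of -1.58 ± 0.09 had the smallest p of all genes (edgeR adjusted p = 9.4e-13). Ifitm3, of the same family, which blocks the entry of viruses, averaged 345 ± 10.6 CPM in WT-ERG cells with BRD3308 and 210 ± 15.1 CPM with DMSO, against 256 ± 12.3 CPM and 90.3 ± 5.95 CPM in BB cells, with a difference of -0.79 ± 0.07 (adjusted p = 2e-08). Of 25 interferon-stimulated genes tested, which did not include Ifitm1 and Ifitm3, 1 was called (4%, beside 1.73% over all genes). This was Ifit2, with a higher response in WT-ERG cells (0.53 ± 0.12, adjusted p = 0.013), and its adjusted p was 0.052 without WT-ERG DMSO replicate 2.

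Thy1, a surface glycoprotein of T cells and stem cells, rose in both lines. It had 245, 228, 245 and 247 CPM in WT-ERG cells with BRD3308, against 47.7, 39.3, 40.1 and 40.2 CPM with DMSO. In BB cells it had 131, 126, 123 and 138 CPM with BRD3308, against 8.87, 8.19, 10.2 and 8.36 CPM with DMSO. The log2 fold changes were 2.53 and 3.86, and the difference was -1.33 ± 0.10 (edgeR adjusted p = 7.6e-10), although the gain in CPM was larger in WT-ERG cells. The serpin Serpinb10 (-0.70 ± 0.08, adjusted p = 4.8e-06), annotated as a polymorphic pseudogene, the calcium-binding protein S100a6 (-1.48 ± 0.19, adjusted p = 9.7e-06) and the integrin subunit Itgb7 (-1.0 ± 0.18, adjusted p = 0.001) also rose more in BB cells. So did Siglecf, a lectin of eosinophils (-0.42 ± 0.07, adjusted p = 0.00055), Cd48, a ligand of lymphocyte receptors (-0.60 ± 0.10, adjusted p = 0.00089), and Cdkn1a, the p21 inhibitor of cell division (-0.42 ± 0.08, adjusted p = 0.0036).

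Among the 53 genes that rose more in WT-ERG cells was Cybb, whose product kills microbes in phagocytes. Cybb (ENSMUSG00000015340, chrX:9435252-9487771), the catalytic subunit of the phagocyte NADPH oxidase, had 55.1, 62.8, 61.3 and 66.4 CPM in WT-ERG cells with BRD3308, against 12.2, 14.4, 13 and 14 CPM with DMSO. BB cells had 117, 114, 114 and 131 CPM with BRD3308, against 44.6, 47.9, 54.6 and 52.7 CPM with DMSO. The log2 fold changes were 2.19 and 1.25, and the difference was 0.94 ± 0.10 (edgeR adjusted p = 1.4e-06), although the gain in CPM was larger in BB cells. Cybb was the 1 gene called of 6 subunits of the oxidase (16.7%, beside 1.73% over all genes). Osbpl3, a lipid transfer protein, averaged 67.3 ± 1.06 CPM in WT-ERG cells with BRD3308 and 37.3 ± 1.47 CPM with DMSO, against 92.6 ± 3.52 CPM and 76.7 ± 1.42 CPM in BB cells, with a difference of 0.58 ± 0.06 (adjusted p = 1.6e-07). The cytokine receptor subunit Csf2rb2 (0.46 ± 0.06, adjusted p = 3.5e-05) and the glutathione transferase Mgst1 (0.57 ± 0.12, adjusted p = 0.0089) also rose more in WT-ERG cells. Csf2rb2 closely resembles Csf2rb, so that reads may have been divided between them.

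**Figure D4:**
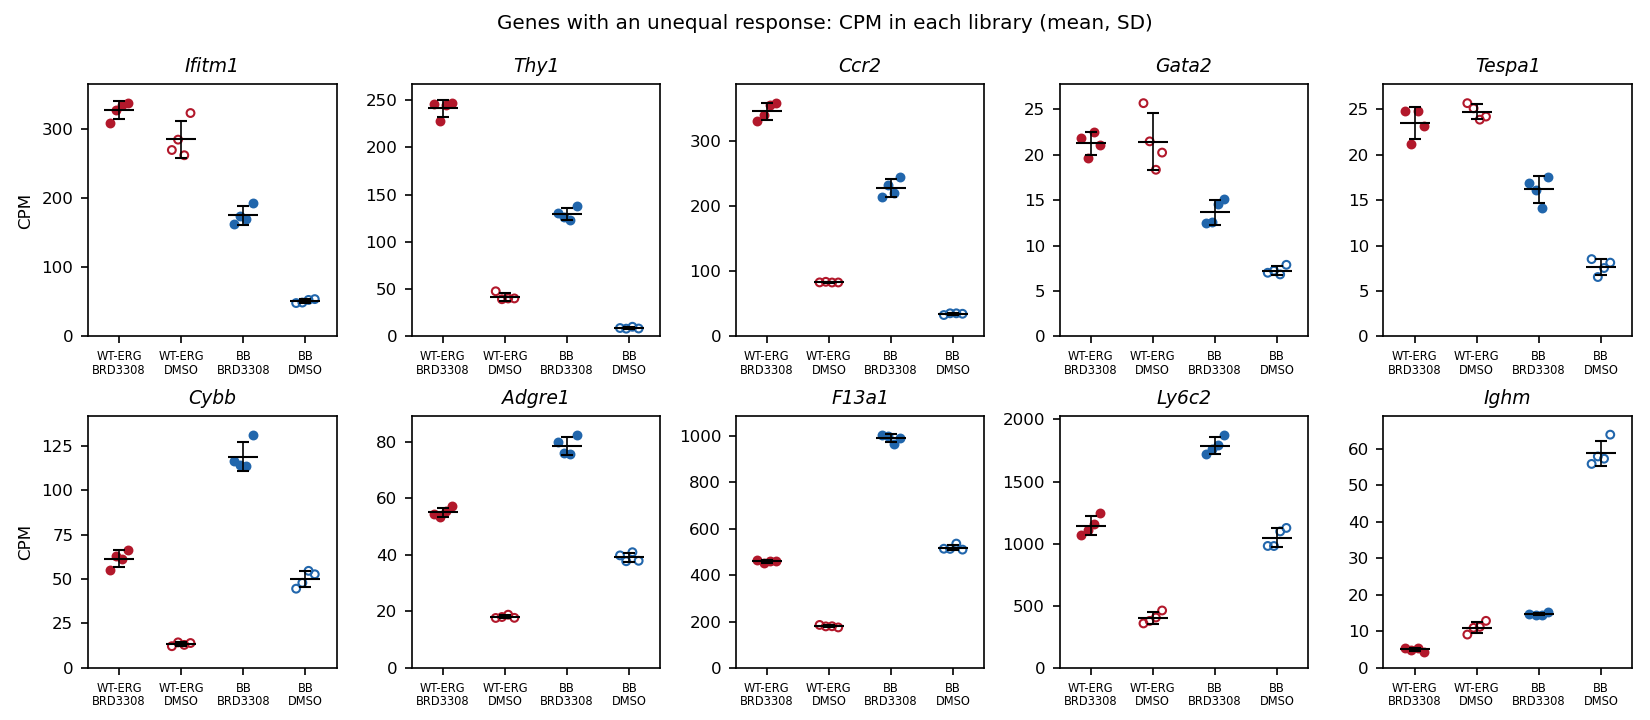
CPM of 10 genes with an unequal response in each library (y axis from 0), with filled points for BRD3308, open points for DMSO, red for WT-ERG and blue for BB, and the mean and SD of 4 replicates in black. Thy1 and Ccr2 gained more CPM in WT-ERG cells but rose by a larger fold in BB cells, and Cybb, Adgre1 and F13a1 show the reverse.

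Genes that fell in both lines differed by smaller amounts. Entpd5, a nucleotide-cleaving enzyme of the endoplasmic reticulum, averaged 56.7 ± 1.53 CPM in WT-ERG cells with BRD3308 and 96.8 ± 4.14 CPM with DMSO, against 41.7 ± 1.72 CPM and 58.1 ± 3.04 CPM in BB cells. It fell more in WT-ERG cells, with a difference of -0.30 ± 0.07 (edgeR adjusted p = 0.014). Pno1, an assembly factor of the small ribosomal subunit (-0.28 ± 0.07, adjusted p = 0.018), and Ldha, the lactate dehydrogenase of glycolysis (-0.16 ± 0.04, adjusted p = 0.042), also fell more in WT-ERG cells. Sun2, of the nuclear envelope (0.16 ± 0.04, adjusted p = 0.02), and Phka2, a regulatory subunit of phosphorylase kinase (0.23 ± 0.05, adjusted p = 0.021), fell more in BB cells. Pno1 lost its call without either of 2 libraries, Ldha without any 1 of 13 and Phka2 without any 1 of 5. Without a filter on low counts all 5 lost it, and over these alternatives the adjusted p reached 0.059 for Entpd5, 0.10 for Pno1, 0.42 for Ldha, 0.16 for Sun2 and 0.054 for Phka2.

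The sign of a difference in response depended on the scale for some genes. On the CPM scale, 186 of the 224 genes had the sign of the log2 difference and 38 had the other sign. Of these 38, 18 were among the 53 genes that rose more in WT-ERG cells, 18 among the 67 that rose more in BB cells and 2 among the 22 that rose in BB cells alone. The genes with opposite responses and the genes that fell all had the same sign on both scales. Of the genes named here, Thy1, Ccr2, S100a6, Itgb7, Emilin2, H2-Ob, Cybb, Adgre1, F13a1, Thbs1, Mgst1, Prom1, Il18, Mpeg1 and Krt80 had the other sign in CPM.

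Of 56 gene lists, 34 had a member called and 22 had none, and 57 of 977 distinct members tested were called, beside 1.73% over all genes. Of the 2493 genes that rose in both lines, 120 were called, and several lists hold mostly genes that rose. The monocyte and macrophage list had 6 of 18 members called (33.3%, beside 1.73% over all genes), 4 higher in WT-ERG cells and 2 lower, with a median difference of 0.03 beside -0.0069 over all genes. Adgre1, which encodes the macrophage marker F4/80, averaged 55.1 ± 1.62 CPM in WT-ERG cells with BRD3308 and 18.1 ± 0.54 CPM with DMSO, against 78.6 ± 3.31 CPM and 39.1 ± 1.54 CPM in BB cells, with a difference of 0.60 ± 0.07 (edgeR adjusted p = 4.9e-06). Ly6c2, a marker of inflammatory monocytes, had 1069, 1111, 1160 and 1244 CPM in WT-ERG cells with BRD3308, against 358, 379, 406 and 462 CPM with DMSO. Levels in BB cells were 1720, 1765, 1798 and 1878 CPM with BRD3308, against 982, 981, 1099 and 1127 CPM with DMSO. Its difference was 0.74 ± 0.09 (adjusted p = 8.2e-06), though Ly6c1 is near-identical and reads may have been divided. F13a1, a subunit of coagulation factor XIII (0.42 ± 0.05, adjusted p = 8.2e-06), and the pore-forming protein Mpeg1 (0.31 ± 0.07, adjusted p = 0.01) were higher too. On the CPM scale, Adgre1, F13a1 and Mpeg1 had the other sign, and Ly6c2 gained nearly the same in both lines.

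The chemokine receptors Ccr2 and Ccr1 went the other way within that list. Ccr2, which brings monocytes out of the bone marrow, had 330, 340, 355 and 358 CPM in WT-ERG cells with BRD3308, against 82.9, 83.8, 82.8 and 82.8 CPM with DMSO. In BB cells it had 214, 233, 221 and 245 CPM with BRD3308, against 32.8, 35.5, 35.5 and 34.8 CPM with DMSO. The difference was -0.66 ± 0.07 (edgeR adjusted p = 3.6e-07), and that of Ccr1 was -0.63 ± 0.11 (adjusted p = 0.00094). They were the 2 called of 17 chemoattractant receptors (11.8%, beside 1.73% over all genes). The summed level of 23 monocyte and macrophage genes was 2747 to 3019 CPM in WT-ERG cells with BRD3308 and 942.6 to 1034 CPM with DMSO, against 4033 to 4352 CPM and 1890 to 2069 CPM in BB cells. Ly6c2, at the levels given above, made up a large part of each sum. The complement genes C1qa, C1qb and C1qc of that list were at 0 in all 16 libraries. Whether a changed share of monocytic cells has a part in these differences was not tested.

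Matrix proteins had 6 of 20 members called (30%, beside 1.73% over all genes), 5 of them lower, with a list median of -0.13. Thbs1, the matrix and platelet protein thrombospondin, averaged 7169 ± 375 CPM in WT-ERG cells with BRD3308 and 1817 ± 106 CPM with DMSO, against 11528 ± 438 CPM and 4489 ± 369 CPM in BB cells, and was the 1 higher (0.62 ± 0.08, edgeR adjusted p = 1.9e-05). The membrane protease Mmp14 (-0.63 ± 0.08, adjusted p = 1.6e-05), osteopontin, Spp1 (-0.43 ± 0.07, adjusted p = 0.00055), and the elastic fibre protein Emilin2 (-0.48 ± 0.09, adjusted p = 0.0017) were lower, as were Fbln1 (-0.52) and Ecm1 (-0.40). Ly6 and Ifitm surface proteins had 6 of 19 called (31.6%), 2 higher and 4 lower, with a median of -0.06. S100 and stefin proteins had 2 of 14 called (14.3%), S100a6 and Stfa1, both lower.

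Lymphocyte genes are listed as markers of other cells. Of 8 B lymphocyte genes tested, 3 were called (37.5%, beside 1.73% over all genes), with a list median of 0.03. The immunoglobulin heavy chain Ighm fell in both lines, with 5.49, 4.87, 5.41 and 4.43 CPM in WT-ERG cells with BRD3308, against 9.12, 11, 11.2 and 12.9 CPM with DMSO. BB cells had 14.8, 14.6, 14.3 and 15.2 CPM with BRD3308, against 55.8, 57.8, 57.2 and 63.8 CPM with DMSO. The log2 fold changes were -1.12 and -1.99, and the difference was 0.87 ± 0.13 (edgeR adjusted p = 0.00012). The surrogate light chain Igll1 rose more in WT-ERG cells (0.76 ± 0.09, adjusted p = 8.2e-06) and the coreceptor Cd72 rose more in BB cells (-0.72 ± 0.10, adjusted p = 6.2e-05). The 14 B lymphocyte genes summed to 145.4 to 163.5 CPM in WT-ERG cells with BRD3308 and 77.89 to 88.81 CPM with DMSO, against 206.6 to 228.1 CPM and 185.1 to 203.5 CPM in BB cells, with Blk at 0 in all 16 libraries.

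Of 24 T lymphocyte and NK cell genes, 4 were tested, with a median difference of -0.44. Called were 2 (50%, beside 1.73% over all genes), Thy1 and the granule protein Nkg7 (-0.49 ± 0.08, edgeR adjusted p = 0.00032). The defining genes Cd4, Cd7, Cd2, Trbc2, Gzma and Gzmb were at 0 in all 16 libraries, and 18 of the 24 had fewer than 10 reads in each. The summed level of the 24 genes was 559.9 to 600.8 CPM in WT-ERG cells with BRD3308 and 237.8 to 270.5 CPM with DMSO, against 367.3 to 387.8 CPM and 114.7 to 124.4 CPM in BB cells. Thy1, at the levels given above, and Nkg7, with a mean log2 CPM of 7.64 over the 16 libraries, made up much of these sums. The part of other cell types in these differences was not tested.

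Of the 7 heptad factors, Gata2 and Lmo2 were called (28.6%, beside 1.73% over all genes), both lower in WT-ERG cells, with a list median of -0.04. Lmo2, a bridging factor of stem cell complexes, averaged 164 ± 4.14 CPM in WT-ERG cells with BRD3308 and 220 ± 11.4 CPM with DMSO, against 119 ± 0.81 CPM and 138 ± 3.75 CPM in BB cells. Its difference of -0.21 ± 0.05 (edgeR adjusted p = 0.018) lost its call without BB DMSO replicate 2, without WT-ERG BRD3308 replicate 4 and without a filter on low counts, with adjusted p values up to 0.19. Among 15 stem and progenitor genes 2 were called (13.3%), Hlf and the surface protein Prom1 (0.54 ± 0.12, adjusted p = 0.012), both higher, whereas the median difference of the list was -0.16. Of 32 genes of ribosome biogenesis and MYC targets, 2 (6.25%) were lower, with a list median of -0.10. They were Nop56 (-0.23 ± 0.06, adjusted p = 0.023) and Odc1, which starts polyamine synthesis (-0.32 ± 0.08, adjusted p = 0.022). Nop56 lost its call without any 1 of 5 libraries and without the filter, and Odc1 without any 1 of 6 libraries, with adjusted p values up to 0.10 and 0.069.

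Mature neutrophil genes had 3 of 22 called (13.6%, beside 1.73% over all genes). Itgam, which encodes CD11b, rose more in WT-ERG cells (0.24 ± 0.06, edgeR adjusted p = 0.024), and lost its call without any 1 of 5 libraries, with adjusted p values up to 0.069. C-type lectin and Fc receptors also had 3 of 22 called (13.6%). Clec4d (-0.75 ± 0.18, adjusted p = 0.02) lost its call without BB DMSO replicate 3 or 4 or WT-ERG DMSO replicate 2, with adjusted p values up to 0.054, and the inhibitory Fc receptor Fcgr2b (-0.22 ± 0.05, adjusted p = 0.031) and Clec4a2 (0.33 ± 0.09, adjusted p = 0.047) without any 1 of 10 and 13 libraries, Fcgr2b also without a filter on low counts. None of 13 primary granule proteins and none of 14 secondary and tertiary granule proteins was called for a difference. The latter list had a median difference of 0.16, with a median response of 0.28 in WT-ERG cells and 0.14 in BB cells. An unadjusted edgeR p under 0.05 was found for 6 of these 14 genes and 3 of the 13 primary granule genes. Over all genes tested it was found for 1352 of 12963.

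**Figure D5:**
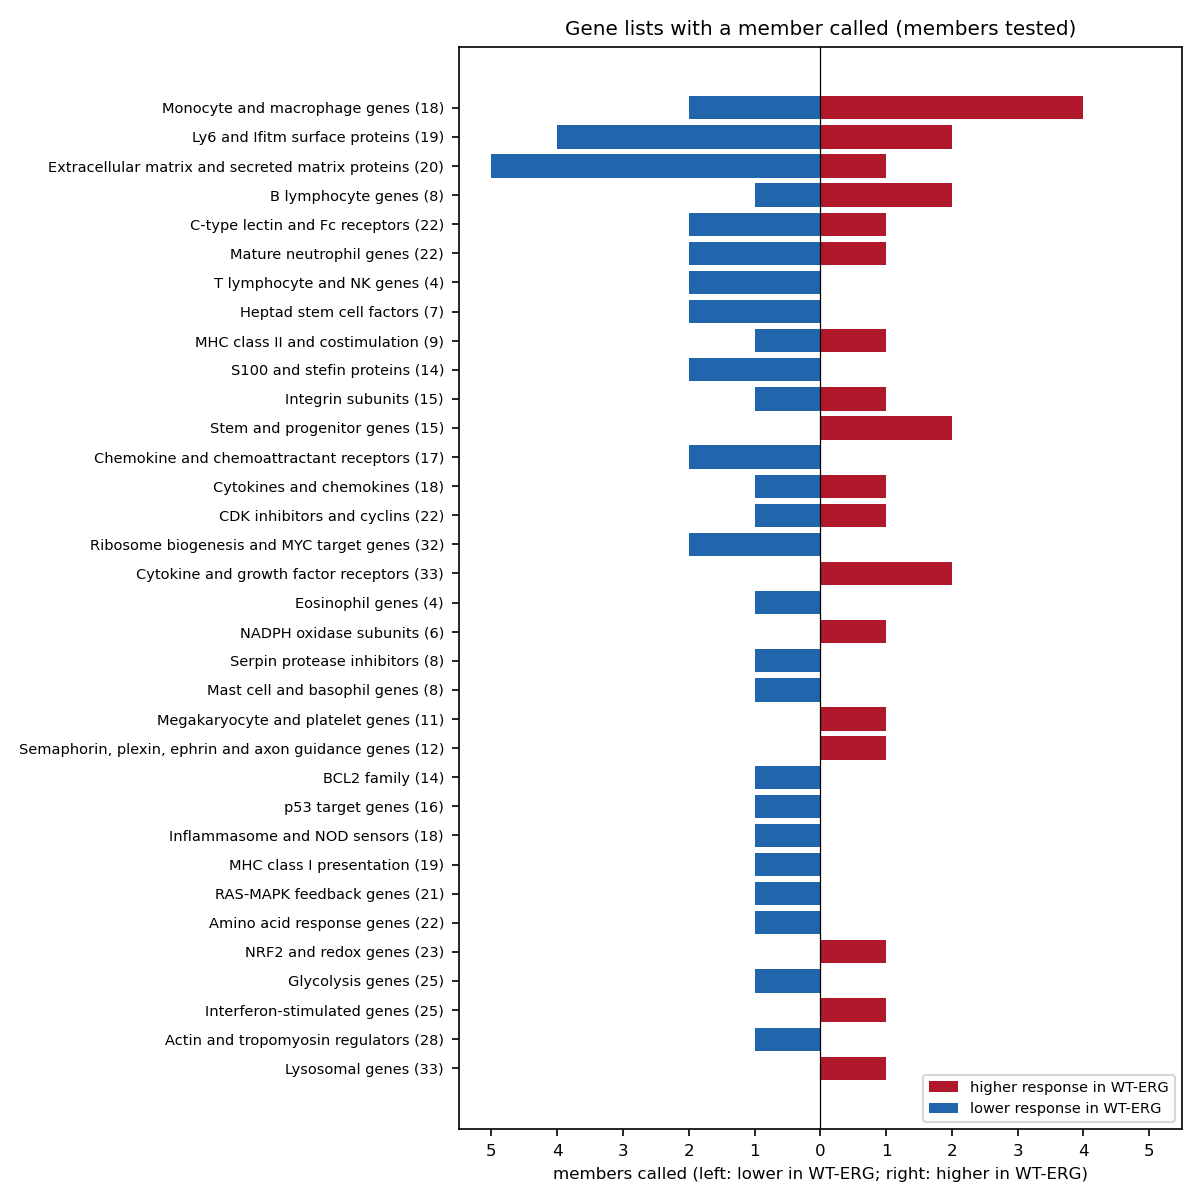
Number of members called for a difference in response (x axis) in the 34 gene lists with at least 1, with the members tested in parentheses. Red bars to the right are members with a higher response in WT-ERG cells and blue bars to the left members with a lower one. The monocyte and macrophage list has 4 higher and 2 lower, and matrix proteins 1 higher and 5 lower.

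Further lists had 1 or 2 members called, to be read beside 1.73% over all genes. Among 18 cytokines and chemokines, Ccl9, which attracts myeloid cells, rose more in BB cells (-0.35 ± 0.08, edgeR adjusted p = 0.011). Il18, an inflammasome cytokine, rose more in WT-ERG cells (1.88 ± 0.48, adjusted p = 0.045), but averaged 2.23 CPM in WT-ERG cells with BRD3308 and 0.106 CPM with DMSO, against 3.38 CPM and 0.608 CPM in BB cells, and lost its call without any 1 of 12 libraries and without a filter on low counts, with adjusted p values up to 0.17. Of 9 genes of MHC class II and costimulation, Cd80 was higher (0.62 ± 0.16, adjusted p = 0.045) and H2-Ob lower (-1.09 ± 0.29, adjusted p = 0.049), and each lost its call without any 1 of 13 libraries. H2-Ob lost it also with RLE factors, with library size alone and with limma-voom, and its adjusted p reached 0.18. Nlrc5, the activator of MHC class I genes, was lower (-0.38 ± 0.09, adjusted p = 0.017), with an adjusted p of 0.057 without WT-ERG DMSO replicate 2. The cell cycle factor E2f2 (0.23 ± 0.06) and the semaphorin receptor Plxnc1 (0.25 ± 0.06) rose more in WT-ERG cells, each with an adjusted p of 0.024, and lost their calls without any 1 of 7 and 6 libraries and without the filter, with adjusted p values up to 0.15 and 0.10. Psat1, of serine synthesis, fell with a call in WT-ERG cells alone (-0.16 ± 0.04, adjusted p = 0.018), and lost its call without BB BRD3308 replicate 2 and without the filter, with adjusted p values up to 0.48.

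In edgeR, no member was called among 15 myeloid transcription factors, 17 AP-1 factors, 9 Krüppel-like factors or 12 genes of the NCoR-HDAC3 complex and class I HDACs. The same held for 46 cytosolic ribosomal proteins, 36 DNA replication genes, 32 mitosis genes, 29 cholesterol genes and 35 genes of oxidative phosphorylation. Over the 22 lists with no call, 48 of 453 genes had an unadjusted p under 0.05, beside 1352 of 12963 over all genes tested. DESeq2 called 6 of the 453, beside 281 of 12963. For the NCoR-HDAC3 list and the ribosomal proteins both counts were 0. A p above the threshold does not show equal responses, but the intervals bound some of them. Hdac3 had a difference of 0.02, with a 95% interval from -0.10 to 0.14, and Ncor1 one of 0.05, from -0.11 to 0.20. For Erg, which rose by 0.21 in WT-ERG cells and 0.25 in BB cells, the difference was -0.04, from -0.16 to 0.09.

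The response of WT-ERG cells was set beside that of P199L-ERG cells, with the same WT-ERG libraries on both sides. For the 67 genes that rose more in BB cells, the median response was 0.78 in WT-ERG cells, 0.95 in P199L-ERG cells and 1.46 in BB cells, and for the 53 that rose more in WT-ERG cells it was 1.14, 0.95 and 0.60. Both sets were chosen by the difference between WT-ERG and BB cells, and this choice draws those 2 medians apart. A P199L-ERG median between them is therefore no test of that construct. The responses of WT-ERG and P199L-ERG cells differed for 6 of 12963 genes (0.0463%). Osbpl3 rose by 0.85 in WT-ERG cells and 0.51 in P199L-ERG cells, a difference of 0.34 (edgeR adjusted p = 0.015). The chaperone Dnajb9 and Herpud1, both of the unfolded protein response, had differences of 0.49 each (adjusted p = 0.033 and 0.015), but -0.07 and -0.04 against BB cells, with adjusted p values of 0.87 and 0.94. Krt80 and Tspoap1 had lower responses in WT-ERG cells than in P199L-ERG cells, by -0.46 each (adjusted p = 0.049 and 0.027).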

How the data were processed

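RNA of 24 libraries, 4 in each of 6 groups, was sequenced, and the authors deposited counts of reads per gene. Per the labels and the paper, reads shorter than 30 bp were discarded and the rest mapped to GRCm38 with STAR. In the submitters' processing notes, HTSeq, DESeq2 and cutadapt are named with no version. The strand setting is not given in the sources used here, so that overlapping antisense genes cannot be separated. Groups came from the labels. Symbols came from GENCODE M21 (53706 of 53801 genes).

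Genes were kept by filterByExpr, scaled with TMM factors and fitted with 1 coefficient for each group in 1 quasi-likelihood model over all 24 libraries (edgeR 4.0.16, limma 3.58.1, DESeq2 1.42.0, R 4.3.3). The difference in response is a contrast of the 4 WT-ERG and BB groups. P values are two-sided and adjusted by Benjamini-Hochberg over 12963 genes, with 0.05 as threshold, and called means past it. The SE is the absolute log2 difference divided by the square root of F. CPM used TMM-scaled library sizes. Genes named, at mean log2 CPM values of 2 or more, are the 6 with the smallest p in each opposite class and 3 in each other class. Called members of gene lists were added, up to 4 a list, with Erg, Hdac3 and Ncor1. Fbln1, Ecm1, Mpeg1 and the genes set beside P199L-ERG were named after their values were seen. Some called genes that fit these rules are not reported here. Members, lists and tests were chosen with earlier results of these data known. On simulated data for this contrast with 12963 genes, 6, 30, 43 and 45 of 50 genes were found at changes of 1.2, 1.5, 2 and 4 times, and 6 of 130 calls were unchanged genes. Alternatives were other scalings, filters, tests and thresholds, a replicate block, the 16 libraries alone, and each library left out. The 24 alternatives used for single genes all kept the threshold of 0.05.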

Additional observations from a re-analysis of the deposited data

Results flagged for a closer look

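The difference in response between the lines was itself tested, and 224 genes passed, 107 higher and 117 lower in WT-ERG cells, 18 of them with opposite responses. The named opposite-response genes had differences of 0.54 (Sgms2), 0.69 (Chst13), 0.34 (Cnst), 0.30 (Tspan2), 0.32 (Itih5), 0.32 (Stx2), -1.22 (Rtn4r), -0.63 (Tubb6), -0.47 (Mtap), -0.30 (Rnf145), -0.28 (Dapp1), -0.41 (Bcl2) and -0.25 (Ezr).

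In 18 of 332 groups of 4 libraries (5.42%), 1 library of a named gene lay far from the others, where chance gives about 1 in 20. In WT-ERG cells with BRD3308 these were Etv4 at 5.49 CPM in replicate 1, Thy1 at 228 CPM in replicate 2 and Ezr at 465 CPM in replicate 4. In WT-ERG cells with DMSO they were Sort1 at 63.9, Thy1 at 47.7 and Thbs1 at 1659 CPM in replicate 1, and Ncor1 at 343 and Hdac3 at 98.9 CPM in replicate 4. In BB cells with BRD3308 they were Hlf at 27.1 and Bcl2 at 21.7 CPM in replicate 2, and Sort1 at 231, Siglecf at 153, Csf2rb2 at 130.4 and Mgst1 at 92.0 CPM in replicate 4. In BB cells with DMSO they were Cnst at 67.0 and Cd80 at 9.80 CPM in replicate 1, Clec4d at 8.38 CPM in replicate 2 and F13a1 at 536 CPM in replicate 3.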

How the results depend on the processing

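The 224 genes called kept the sign of their difference in each alternative whose table held them. The count was 221 with RLE factors, 228 with library size alone, 238 without a filter, 220 with over 30 reads in each library, 281 with DESeq2, 216 with limma-voom and 282 in the 16 libraries alone. With each library left out it was 164 to 205, with 72 to 101 higher, 88 to 107 lower and 12 to 17 opposite. With the replicate number as a block, 421 genes were called (213 higher, 208 lower, 32 opposite). No source says that a number marks a shared experiment. Deviations of same-numbered libraries correlated at 0.0404 to 0.576 over 24 pairs (median 0.242, against -0.098 for different numbers). The same-number correlation was close to 0 for the lowest pair and above 0 for all. Deviations are from group means, so same-number values above 0 draw the different-number values below 0. The median for different numbers is therefore no separate baseline. Of 16 libraries, 11 were closest to their own number. The same-number correlations and this count are a hint of pairing from the data. The numbers were not used to pair libraries, so the main counts leave any such pairing out. At an adjusted p under 0.01, 105 genes were called (47 higher, 58 lower, 6 opposite), and with a difference over 1, 26 (10 higher, 16 lower). Of 78 named genes called, 53 kept the call in each alternative at the same threshold whose table held them. With each library left out, 55 kept it. The difference of Ncor1, not called, was -0.0249 without WT-ERG DMSO replicate 4 and up to 0.0806 with each other library left out. Causes of these shifts were not tested, apart from the stricter thresholds themselves. Differences under 1.5-fold were often missed at this depth in simulated data.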

Other observations

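Among the 26 genes whose responses differed by over 1 on the log2 scale, 13 had mean log2 CPM values of 2 or more. Adam8 was chosen after its values were seen. This gene, a membrane protease of leukocytes, rose by 1.07 on the log2 scale in WT-ERG cells, 1.68 in P199L-ERG cells and 2.47 in BB cells, a difference between WT-ERG and BB of -1.39 ± 0.14 (SE; edgeR adjusted p = 3.6e-07), with the other sign on the CPM scale.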
